A study of Mus musculus with 4 samples.

Results

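This section describes 991 CTCF peaks of mouse splenic B cells that had no counterpart in the plasmablast peak list although they scored in the upper part of the B cell list. They were chosen from the 36381 peaks of the B cell list by 4 conditions. A peak had to lie on chromosomes 1 to 19, to score above 62.1, the median of the whole B cell list, to share no base with a plasmablast peak, and to have no plasmablast peak midpoint within 500 bp. Of the 17847 autosomal B cell peaks above that median, 16801 overlapped a plasmablast peak, 55 did not overlap one but had a midpoint within 500 bp, and the 991 remained. They made up 5.55% of the 17847 (exact 95% binomial interval 5.22 to 5.90%). The B cell score and the absence of a plasmablast peak chose these peaks, so both are given as description and neither is a finding.

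CTCF is a zinc finger protein that binds a long, directional DNA motif. It stops cohesin as it extrudes chromatin loops, and so marks many loop anchors, domain boundaries and insulators. Most of its sites are bound in many cell types, and the sites that vary between cell types are often of interest for gene regulation. As B cells turn into antibody-secreting cells, their transcription programme and nuclear organisation are rebuilt.

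CTCF binding was mapped by chromatin immunoprecipitation and sequencing in 2 cell populations of C57BL/6 mice, with 1 CTCF and 1 input library each. B cells came from spleens of 6-week-old mice by a magnetic bead kit that leaves the CD43-negative cells. Plasmablasts were CD138-positive spleen cells, sorted by flow cytometry 3 days after mice of the same age had received 50 µg of lipopolysaccharide (LPS) behind the eye. Neither population was described as pooled or single animals, and peak positions cannot check the labelled cell types against marker genes. The B cell libraries were sequenced on a Genome Analyzer II and the plasmablast libraries on a HiSeq 2000, so LPS exposure, cell type and instrument cannot be told apart. With 1 CTCF library per population there was no replicate spread, and no p-value was computed. Intervals on shares are exact binomial and those on medians come from binomial order statistics. Both cover counting error only, and both treat neighbouring peaks as independent. Peaks of the B cell list were 305 bp wide and those of the plasmablast list 179 bp (all but 1), so intervals touched only when midpoints were closer than about 242 bp. The midpoint limit of 500 bp was therefore the stricter of both distance conditions. Positions are on mouse build mm9, 1-based. No mm9 annotation or genome was used here, so no gene is named and no sequence is shown.

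Most B cell only peaks sat low within the upper part of the list. Their scores ran from 63.0 to 533.5 with a median of 81.5 and quartiles of 70.0 and 101.0. The shared peaks above the median had a median score of 150 and quartiles of 100 and 208.4. The score is the authors' own value, in a unit the sources leave unstated. The median member stood at the 58.1st percentile of the B cell list, 55 members lay above its upper quartile (142.6), and 2 lay in its highest decile, which held 3663 autosomal peaks.

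The B cell only share fell with every step in score. Between 62.1 and 75 it was 18.8% (364 of 1941 peaks), and between 75 and 100 it was 12.3% (371 of 3024). It was 4.85% from there to 150 and 0.98% from 150 to 200. Above 200 it was 0.0632%, or 3 of 4746 peaks. At the lowest scores inside the limit of the rule, 63.0 and 63.9, 30 of 155 and 32 of 145 autosomal peaks had no plasmablast peak. At the 3 highest scores outside it, 62.1, 61.1 and 60.2, this held for 47 of 161, 34 of 173 and 44 of 154. On the side of the distance limit, the nearest members were 525, 536 and 560 bp from a plasmablast midpoint. The closest peaks left out were 490, 465 and 422 bp away.

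**Figure D1:**
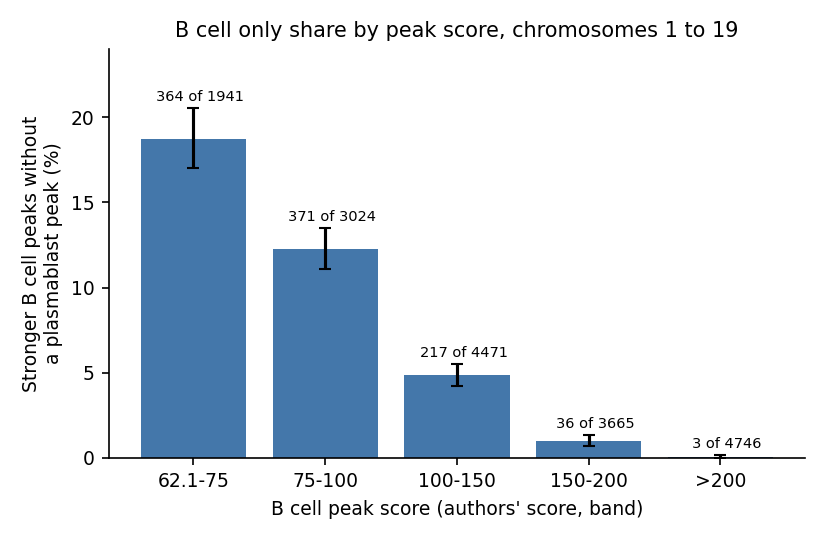
Share of autosomal B cell peaks above the median score that had no plasmablast peak (vertical axis, %), by band of the authors' B cell score (horizontal axis). Bars start at 0, whiskers are exact 95% binomial intervals, and the share falls from 18.8% in the lowest band to 0.0632% above a score of 200.

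The 15 highest scoring members were spread over 11 chromosomes and differed in their surroundings. The plasmablast peak nearest to them was a shared one in 13 of 15 cases, and it lay within 10 kb in 10 of 15. It scored below the median of the plasmablast list in 8 of 15. The groups below are ordered by what lay around the peak.

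The top score belonged to chr17:39980139-39980443, at 533.5. It stood alone in the B cell list: the next B cell midpoint was 981416 bp away, and no shared site lay within 500 kb. A strong plasmablast peak (score 179.6, 99.98th percentile) lay 1974 bp away and overlapped no B cell peak. The deposited peak names carry a number per chromosome that falls in step with the score on every chromosome. This peak carries the number 4, the lowest listed on chromosome 17, whereas 18 of the 19 autosomes have a listed number 1. Without an mm9 genome or annotation, whether this stretch is repeated sequence was not tested, so its score may not reflect a single CTCF site.

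Close to a stronger shared site lay 3 of the next members. The peak chr1:159009507-159009811 scored 227.8, and a shared B cell peak of 289.0 lay 2266 bp from it. The peak chr5:144309248-144309552 scored 213.9, beside a shared B cell peak of 302.9 at a distance of 929 bp. The peak chr9:60845898-60846202 scored 188.0, and its shared neighbour of 196.4 was 1215 bp away. In these 3 places the plasmablast list held the neighbour but not the member, and the plasmablast peak at the neighbour scored 89.2, 65.5 and 16.4, in that order.

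In 3 other places the member outscored a shared neighbour at a distance of under 6 kb. The peak chr3:122431682-122431986 scored 194.5 and lay 1574 bp from a shared B cell peak of 98.2. The peak chr6:90775193-90775497 scored 197.3, with a shared peak of 91.7 at 5229 bp. The peak chr7:51567423-51567727 scored 177.8, with a shared peak of 151.9 at 5913 bp. The plasmablast peaks at these weaker neighbours scored 13.7, 13.9 and 14.6, all below the plasmablast median of 19.4. The peak chr19:45151206-45151510 (187.1) was close to its neighbour in score as well as in position, with a shared peak of 181.5 at 2532 bp and a plasmablast score of 56.3 there.

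A distance of more than 8 kb separated 5 other members of this group from any plasmablast peak. On chromosome 5, chr5:115371779-115372083 scored 197.3 and was 19271 bp from the nearest plasmablast midpoint. On chromosome 15, chr15:79501059-79501363 scored 188.0 at 8722 bp. On chromosome 1, chr1:38054673-38054977 scored 186.2 at 12003 bp. On chromosome 19, chr19:6931162-6931466 scored 181.5 at 14831 bp. On chromosome 17, chr17:25173166-25173470 scored 198.2 at 19307 bp, and its nearest B cell neighbour was another member. Between 16 and 40 shared sites lay within 500 kb of each of these 5.

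The last 2 of the 15 were unlike each other. The peak chr2:163470843-163471147 scored 190.8, and a plasmablast peak that overlapped no B cell peak lay 1141 bp away with a low score of 11.6. Its nearest B cell neighbour was 13177 bp away. The peak chr4:71860077-71860381 scored 194.5 and was the member farthest from any plasmablast peak. Its nearest plasmablast midpoint was 866978 bp away and its nearest B cell midpoint 867015 bp away, and no shared site lay within 500 kb.

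Only 29 members were more than 100 kb from a plasmablast midpoint, and 13 of those had a B cell peak within 50 kb. After the chromosome 4 peak, the farthest was chr2:114679649-114679953 at 593531 bp, with a score of 63.0. The next were chr6:93607643-93607947 (score 65.8) at 382502 bp, chr13:98377108-98377412 (63.0) at 330849 bp and chr3:143042185-143042489 (130.6) at 219904 bp. Around the chromosome 2, 6 and 13 peaks the nearest B cell neighbour was closer than any plasmablast peak. Those neighbours were weak and themselves without a plasmablast peak, with scores of 19.4, 20.4 and 23.2. Both lists together left 38 members with neither a B cell nor a plasmablast midpoint within 50 kb, and 51 had no other B cell midpoint that close.

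Typical members were not isolated. The median distance to the nearest plasmablast midpoint was 8072 bp (interval 7249 to 8841 bp), with quartiles of 2950.5 and 19488.5 bp. For shared peaks above the median, measured to the nearest plasmablast midpoint beyond 500 bp, the median was 9847 bp (9591 to 10111 bp). A plasmablast midpoint lay within 2 kb of 15.9% of members (158 of 991), within 5 kb of 37.5%, within 10 kb of 56.5% (interval 53.4 to 59.6%) and within 50 kb of 92.2%. The corresponding shares of the stronger shared peaks were 12.7%, 30.6%, 50.5% (49.7 to 51.2%) and 91.4%. Members were thus slightly closer to plasmablast peaks than shared peaks were to their next ones, with intervals that did not overlap at 10 kb. The difference was already present within 5 kb (intervals 34.5 to 40.6% and 29.9 to 31.3%) and did not grow from there to 10 kb. At 50 kb the intervals overlapped (90.4 to 93.8% and 91.0 to 91.8%).

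**Figure D2:**
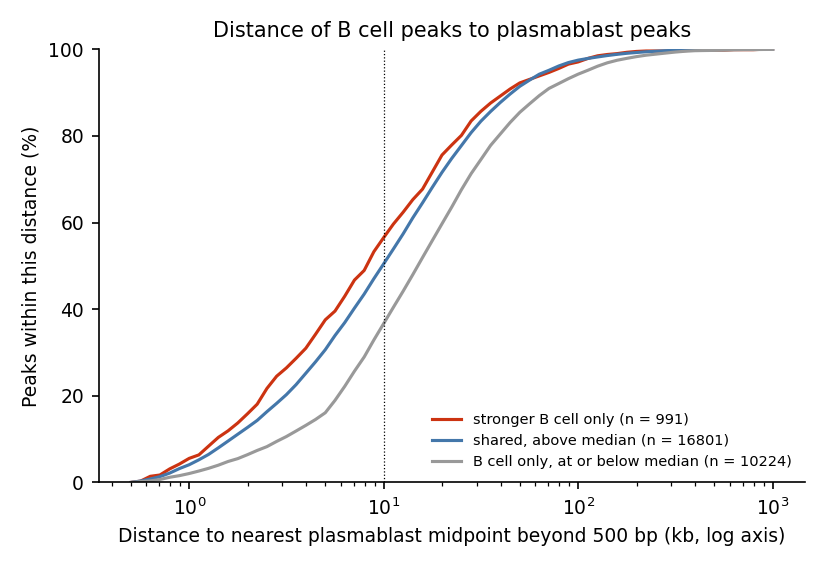
Cumulative share of B cell peaks (vertical axis, %) with a plasmablast midpoint within the distance on the horizontal axis (kb, log axis), counting only midpoints more than 500 bp away. At the dotted line (10 kb) the stronger B cell only peaks are at 56.5%, the stronger shared peaks at 50.5% and the B cell only peaks at or below the median score at 36.7%.

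The 10224 autosomal B cell only peaks at or below the median score were farther away, with a median of 14983.5 bp and 36.7% within 10 kb. Their curve had a bend at 5 kb. From 4 to 5 kb, 2.80% of these weaker peaks had their nearest plasmablast midpoint, and from 5 to 6 kb 4.73% did. For the 991 members the same shares were 6.56% and 3.23%. The weaker peaks thus numbered 286 just inside 5 kb and 484 just outside, and the part of this step in the difference between stronger and weaker B cell only peaks was not tested.

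The closeness to plasmablast peaks was seen in each score band. Among peaks with scores up to 75, a plasmablast midpoint lay within 10 kb of 54.1% of members (48.8 to 59.3%) and 43.6% of shared peaks (41.1 to 46.1%). From 75 to 100 the shares were 53.6% (48.4 to 58.8%) and 45.4% (43.5 to 47.3%), and from 100 to 150 they were 61.8% (54.9 to 68.2%) and 49.1% (47.6 to 50.6%). Above 150, 30 of 39 members had such a peak (76.9%, 60.7 to 88.9%), against 54.1% of shared peaks (53.0 to 55.1%). The median distance of members went from 9206.5 bp in the lowest band to 4351 bp above 150 (2505 to 8073 bp). In the shared peaks it went from 12475 to 8759.5 bp. The closeness was not to plasmablast peaks alone. Another B cell midpoint lay within 10 kb of 58.5% of members and 50.0% of shared peaks with scores up to 75. From 75 to 100 these shares were 58.5% and 51.2%, and from 100 to 150 they were 62.7% and 53.1%. From 150 to 200 they were 72.2% (26 of 36 members) and 53.4%, and above 200 they were 66.7% (2 of 3 members) and 58.0%.

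**Figure D3:**
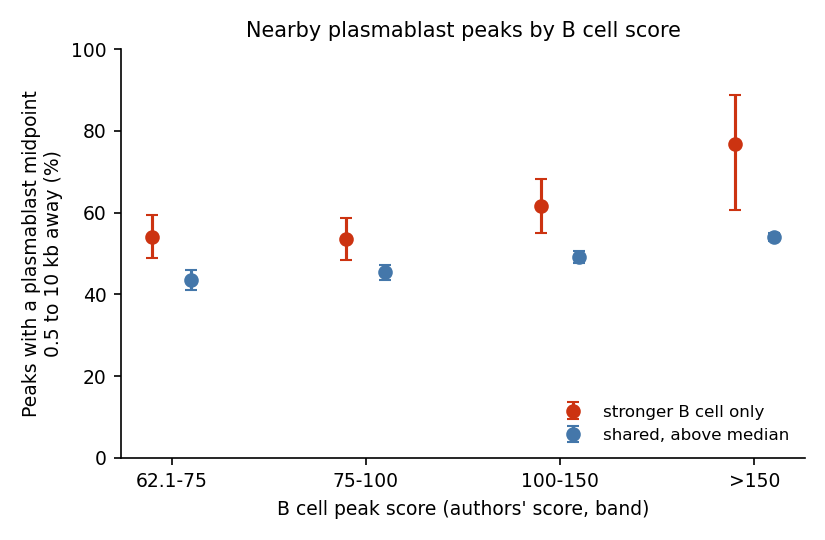
Share of peaks with a plasmablast midpoint between 0.5 and 10 kb away (vertical axis, %) by band of B cell score (horizontal axis), for stronger B cell only peaks and stronger shared peaks, with exact 95% binomial intervals. In all 4 bands the B cell only point lies above the shared one, and above a score of 150 it reaches 76.9% with 39 peaks.

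The plasmablast peak nearest to a member was mostly a site that B cells held too. It was shared in 822 of 991 cases (82.9%, interval 80.5 to 85.2%), and for the stronger shared peaks this was 82.3% (81.7 to 82.9%). The remaining 169 members had a plasmablast only peak as their nearest. The nearest plasmablast peak had a median score of 22.1, near the median of 19.4 of its whole list, and in 14.3% of cases (12.2 to 16.7%) it belonged to the highest decile of that list. The stronger shared peaks had a median of 23.0 and a share of 12.1% (11.6 to 12.6%).

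The 158 members with a plasmablast midpoint between 500 bp and 2 kb away fell into 2 kinds. In 117 of them the plasmablast peak was a shared site, with scores from 2.5 to 87.2 and a median of 29.9, and 65.0% of these were above the plasmablast median. In the other 41 a plasmablast only peak stood near the B cell only peak, with a median score of 10.9, and 8 of the 41 were above the plasmablast median. The members themselves scored alike in both, with medians of 85.2 and 86.1. This split was not particular to members. The plasmablast peak was shared for 74.1% of these members (66.5 to 80.7%). For stronger shared peaks with a plasmablast midpoint in the same range it was 73.0% (1561 of 2139, 71.0 to 74.9%).

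Within the B cell list, a somewhat larger share of members than of shared peaks had a close neighbour. Another B cell midpoint lay within 10 kb of 594 members (59.9%, interval 56.8 to 63.0%), against 53.9% of the stronger shared peaks (53.2 to 54.7%) and 48.3% of the weaker B cell only peaks (47.4 to 49.3%). Within 5 kb these shares were 37.8% (34.8 to 40.9%), 29.1% (28.4 to 29.8%) and 24.3% (23.5 to 25.2%). From 5 to 6 kb the order was reversed, with 4.04% of members and 6.54% of stronger shared peaks. The stronger shared peaks stepped up there, from 5.26% at 4 to 5 kb. The part of that step in the comparison was not tested. The nearest B cell peak of a member was a stronger shared peak in 56.7% of cases, a weaker B cell only peak in 24.1%, a weaker shared peak in 15.3% and another member in 3.33%. For the stronger shared peaks the same figures were 56.8%, 22.1%, 16.9% and 3.51%. Of 118 members whose nearest B cell peak was a shared one within 2 kb, 88 scored lower than that neighbour (74.6%, 65.7 to 82.1%), with a median of 85.2 against 143.6. Of 1590 stronger shared peaks with such a neighbour, 701 scored lower than it (44.1%, 41.6 to 46.6%), with medians of 159.3 and 155.6. The B cell scores of members and shared peaks differ as described above, so this order is a description.

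Members had another member nearby about as often as stronger shared peaks did. Another member lay within 50 kb of 124 of 991 members (12.5%, interval 10.5 to 14.7%), and a member lay within 50 kb of 12.3% of the stronger shared peaks (11.8 to 12.8%). The median distance from a member to the next was 344493 bp. Around members, a median of 21 shared sites lay within 500 kb (interval 20 to 21), compared with 20 for stronger shared peaks (20 to 21) and 18 for weaker B cell only peaks (18 to 19).

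Runs of members with gaps of at most 50 kb were short. There were 52 runs of 2, 5 runs of 3 and 1 run of 5, and 867 members stood alone. The run of 5 lay on chromosome 15 between 98568291 and 98711708, over 143.4 kb. Its members scored 66.7, 91.7, 88.0, 64.8 and 110.2 in order of position. They were interleaved with 9 shared sites and 1 weaker B cell only peak, and all 9 plasmablast peaks in the stretch were shared. The nearest plasmablast midpoints were 27381, 9427, 1169, 1477 and 3598 bp away, so the members stood between sites that both lists held.

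**Figure D4:**
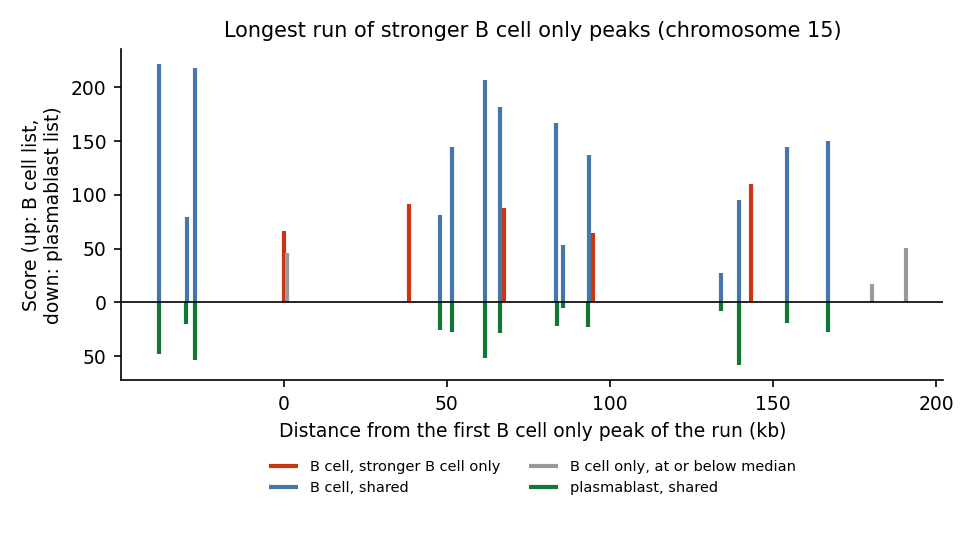
The longest run of stronger B cell only peaks, on chromosome 15, with position as the distance from its first member (horizontal axis, kb) and the authors' scores of the B cell list upward and of the plasmablast list downward (vertical axis, not comparable between lists). The 5 members, scoring 64.8 to 110.2, have no line below them, and each plasmablast line lies under a shared B cell peak.

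Another arrangement was found on chromosome 17, where 3 members followed each other with no plasmablast peak between them. They lay at chr17:25173166-25173470, chr17:25181784-25182088 and chr17:25194038-25194342 and scored 198.2, 100 and 74.1. The plasmablast peaks on either side were 92.7 kb apart, and B cells had 5 unshared peaks in that gap. Only 4 gaps between successive plasmablast peaks held 3 members, 32 held 2 and 915 held 1. The others with 3 were on chromosome 9 (241.0 kb, 9 unshared B cell peaks), chromosome 11 (135.8 kb, 5) and chromosome 15 (113.8 kb, 3). The median gap that held a member was 47.8 kb. Wider gaps are more likely to hold a peak, and gaps without a member were not measured, so this width is not set against other gaps.

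Pairs within 2 kb were rare, with 5 in all. The strongest was on chromosome 10, where chr10:21711117-21711421 and chr10:21712889-21713193 scored 161.2 and 165.8 at a distance of 1772 bp. On chromosome 5, chr5:124562222-124562526 (141.7) and chr5:124563085-124563389 (117.6) lay 863 bp apart, and a strong shared plasmablast peak of 62.5 lay 1080 bp from the former. The tightest pair was on chromosome 15, where chr15:101217648-101217952 (81.5) and chr15:101218408-101218712 (76.9) lay 760 bp apart. Both were more than 47 kb from a plasmablast midpoint, at 47641 and 48401 bp. The other 2 pairs were on chromosome 8 and scored 68.5 with 103.7 and 75.9 with 69.5.

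Counted in windows of 1 Mb, members were found in 653 of the 1785 windows with a stronger B cell peak, and 7 windows held 5 or more. The window with the most was chromosome 17 from 34000001 to 35000000, with 8 members among 49 stronger peaks and also 13 plasmablast only peaks, the most of the 7 windows. Those 8 scored 67.6 to 123.2 and lay 821 to 8841 bp from a plasmablast midpoint. The same chromosome from 25000001 to 26000000 had 7 among 29, including the row of 3 members, and 1 plasmablast only peak. Chromosome 11 had 7 among 32 from 114000001 and 6 among 19 from 58000001, the latter being the highest share of the 7 windows (31.6%). At the other end, a window with 59 stronger peaks held no member. The windows were ranked after their counts were seen. Windows picked for many members tend to have high shares, and the share over all autosomes was 5.55%.

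Between autosomes the B cell only share differed little. It ran from 3.62% on chromosome 10 (34 of 939, interval 2.52 to 5.02%) to 6.67% on chromosome 17 (58 of 869, 5.11 to 8.54%). Of the 19 intervals, only that of chromosome 10 left out the autosomal share of 5.55%. The intervals were not adjusted for looking at 19 chromosomes, so chromosome 10 is not shown to be an exception. Chromosome 11 had the most members, 97, as well as the highest density of stronger peaks, with 13.3 per Mb. Along the chromosomes, cut into 10 equal parts of the span covered by B cell peaks, the share lay between 4.66% in part 9 (3.86 to 5.56%) and 6.37% in part 3 (5.09 to 7.85%), and in part 10, at the distal end, it was 6.33% (5.47 to 7.27%).

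**Figure D5:**
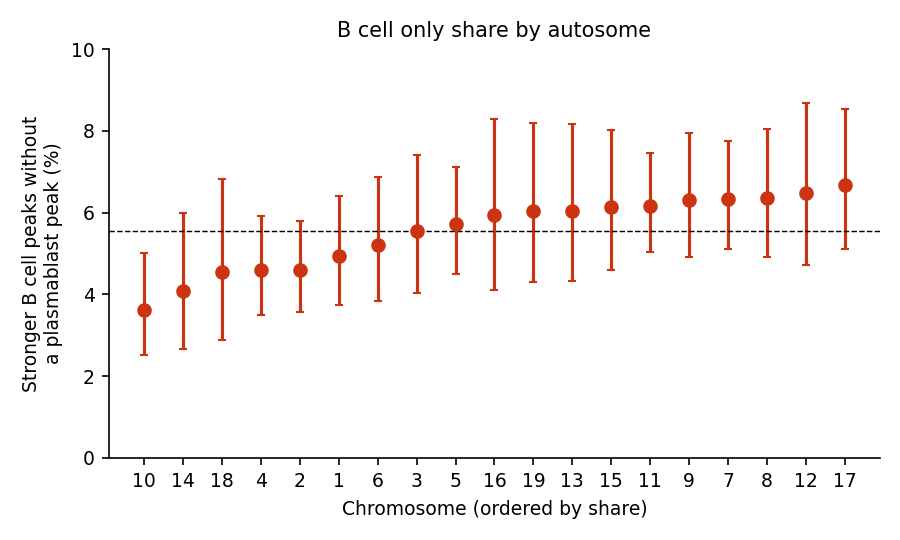
Share of stronger B cell peaks without a plasmablast peak (vertical axis, %) on each autosome (horizontal axis, ordered by share), with exact 95% binomial intervals and the autosomal share of 5.55% as a dashed line. Chromosome 10 at 3.62% is the one autosome whose interval, not adjusted for the number of chromosomes, lies off the line.

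The same rule applied the other way round gave 1305 of 15220 autosomal plasmablast peaks above their own median, or 8.57%. These lay a median of 9266 bp from a B cell midpoint (interval 7659 to 10749 bp). Larger shares of them lay at both extremes of distance, with 22.5% within 2 kb (20.3 to 24.9%) against 15.9% of B cell members (13.7 to 18.4%), and 221 of 1305 beyond 50 kb against 77 of 991. The lists differ in score scale, peak width and length, and their part in these differences was not tested.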

How the data were processed

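The deposited peak lists of the B cell and the plasmablast CTCF library were analysed, and the input libraries were not used here. Bowtie, HOMER and build mm9 are named in the submitters' processing notes, without versions, thresholds or the use of input. Each deposited list gives 1 score per peak, the authors' own value of unstated unit, so depth is unknown. Starts were read as BED and raised by 1. Overlap meant 1 shared base and was checked with bedtools 2.31.1 (24702 overlapping B cell peaks by both). Distances are between midpoints. Scores only ranked peaks within a list. Shares have exact (Clopper-Pearson) 95% intervals. Percentiles count peaks at or below a score. The code was tested on simulated lists. Members and comparisons were chosen with earlier results of these data known. Named peaks were the 15 highest scoring members, the 5 farthest from a plasmablast peak and the longest run. Pairs, gaps, windows and score bands were added after their values were seen. Nearest genes and sequences, also planned, depend on mm9 sequence and gene models, not used here. Python 3.11.15, numpy 2.4.6, pandas 2.3.3, scipy 1.17.1 and matplotlib 3.10.9 were used.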

Additional observations from a re-analysis of the deposited data

How the results depend on the processing

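Across 6 alternatives, 25 of 36 recomputed values stayed within the counting interval of the reported value, and 11 moved. Raising the midpoint limit to 1000 bp, taking the autosomal median (63.0) as the score limit or adding the X chromosome moved none of the 6 values. Dropping the midpoint limit moved 1: the share of members whose nearest plasmablast peak was shared became 78.6%. With the upper quartile (142.6) as the score limit, 55 members were left, which made up 0.61% of the stronger peaks. Of those, 63.6% had a plasmablast midpoint within 10 kb and 3.64% another member within 50 kb, and the median number of shared sites within 500 kb was 24. The list of plasmablast peaks mattered most. With only its peaks above the median score, 5645 B cell peaks met the rule, or 31.6% of the stronger ones. Of those, 30.8% had a listed plasmablast midpoint within 10 kb, 52.8% another B cell midpoint within 10 kb and 45.1% another member within 50 kb. The nearest plasmablast peak was shared in 91.7%, and the median number of shared sites was 11. Fewer peaks in the plasmablast list make more members and fewer shared sites by construction. No replicate could be left out, and no paired analysis was possible because each population had 1 CTCF library. With depth unknown, absence from the plasmablast list does not show absence of CTCF in the cells.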

Other observations

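On the X chromosome, which the rule leaves out, 16 of 242 B cell peaks above the median met the other conditions, or 6.61% (exact 95% binomial interval 3.83 to 10.5%). The numbers of shared B cell peaks at or below the median score also stepped up at 5 kb. Of these, 251 had their nearest plasmablast midpoint beyond 500 bp at 4 to 5 kb and 340 at 5 to 6 kb. For stronger shared peaks these numbers were 884 and 853, and for the 991 stronger B cell only peaks they were 65 and 32. Measured to the nearest other B cell midpoint, the stronger shared peaks did step up, with 883 at 4 to 5 kb and 1099 at 5 to 6 kb. On that measure the 991 went from 65 to 40. The step was noticed in the plotted distances to plasmablast peaks, and its cause was not tested on either measure.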
